A study of Mus musculus with 22 samples.

Results

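The genes described here are 10 secreted liver products of the acute phase response and iron control: Saa1, Saa2, Saa3, Saa4, Orm1, Orm2, Hp, Hpx, Lcn2 and Hamp. They were taken by symbol, as every probe that is not a control and whose gene name in the array files is one of these symbols. All 10 genes were found, on 12 of 41174 probes, with 2 probes each for Saa1 and Saa4. Of the genes that passed the filter on dim probes, they are 10 of 17175 in newborns and 10 of 17187 in adults. No measured value was used to choose them.

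The acute phase response is the change in plasma proteins that hepatocytes make when inflammatory cytokines reach the liver. Interleukin 6 acts through STAT3, and interleukin 1 through NF-kB and C/EBP factors, to raise transcription of serum amyloid A, orosomucoid, haptoglobin, hemopexin and lipocalin genes. Hepcidin, the product of Hamp, is the hormone that binds the iron exporter ferroportin and so lowers iron release into plasma. Its gene answers both to STAT3 and to bone morphogenetic proteins acting through SMAD factors. Tcf7l2 encodes TCF4, a DNA-binding partner of beta-catenin in Wnt signalling.

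Liver RNA of 22 mice was measured on 2-colour Agilent arrays, 1 array per mouse. Liver RNA was read in the Cy3 channel, and a common mouse reference RNA from Stratagene was read in the Cy5 channel of every array. The newborn set held 4 Tcf7l2 knockout and 4 wild-type C57BL/6 pups, each injected subcutaneously with 50 ul of 10% glucose and sampled at 5 h. The adult mice all carried Tcf7l2 loxp/loxp and were all given tamoxifen at 3 weeks of age, and knockouts (LTCF4KO in the labels) carried SA-CreERT2 while controls did not. The promoter and cells that drive this Cre are not spelled out in the labels. After 1 to 2 months, 4 knockouts and 4 controls were fasted for 24 h, and 3 knockouts and 3 controls were fed. Fasted and fed livers were hybridised on different slides, and so were newborn knockouts and wild types, so slide cannot be told apart from feeding or from newborn genotype. Within the fasted and within the fed set each slide held both genotypes.

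Promoter sequences are shown for the gene pairs whose readings the results below turn on. Hamp has a close copy, Hamp2, which lies beside it on chromosome 7 and is not among the 10 genes. Saa1 and Saa2 are adjacent and run in opposite directions. The sequences are RefSeq promoters on GRCm38.p6, from 250 bases before to 50 after the start, for Hamp (chr7:30943980-30944279, minus strand), Hamp2 (chr7:30924132-30924431, minus strand), Saa1 (chr7:46742931-46743230, minus strand) and Saa2 (chr7:46751583-46751882, plus strand), with capitals marking motif matches:
Hamp: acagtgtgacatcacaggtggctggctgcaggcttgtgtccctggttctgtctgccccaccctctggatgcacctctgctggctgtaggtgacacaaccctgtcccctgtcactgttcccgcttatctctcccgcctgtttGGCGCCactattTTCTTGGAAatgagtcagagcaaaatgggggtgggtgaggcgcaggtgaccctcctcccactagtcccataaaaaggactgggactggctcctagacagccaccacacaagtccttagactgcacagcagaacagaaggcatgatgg
Hamp2: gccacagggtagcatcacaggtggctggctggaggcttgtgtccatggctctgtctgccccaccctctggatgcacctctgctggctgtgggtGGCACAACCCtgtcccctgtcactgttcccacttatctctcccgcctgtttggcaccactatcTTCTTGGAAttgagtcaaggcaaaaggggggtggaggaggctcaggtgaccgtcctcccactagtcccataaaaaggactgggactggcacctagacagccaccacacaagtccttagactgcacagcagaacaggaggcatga
Saa1: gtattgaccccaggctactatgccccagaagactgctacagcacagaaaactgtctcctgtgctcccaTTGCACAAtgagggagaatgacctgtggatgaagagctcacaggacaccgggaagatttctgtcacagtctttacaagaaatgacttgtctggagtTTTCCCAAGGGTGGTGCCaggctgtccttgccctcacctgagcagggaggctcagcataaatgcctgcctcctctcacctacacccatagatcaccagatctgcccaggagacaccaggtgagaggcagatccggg
Saa2: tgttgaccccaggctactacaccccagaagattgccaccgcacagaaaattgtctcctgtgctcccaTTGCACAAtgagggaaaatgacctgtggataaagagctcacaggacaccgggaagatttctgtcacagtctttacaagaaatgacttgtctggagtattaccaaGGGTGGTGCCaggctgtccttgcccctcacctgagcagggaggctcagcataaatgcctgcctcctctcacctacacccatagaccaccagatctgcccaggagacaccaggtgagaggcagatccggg
The Hamp and Hamp2 promoters were identical at 276 of 297 aligned bases (92.9%). Both hold TTCTTGGAA, a match to the STAT letters TTCNNNGAA, which 8.3% of 32851 promoters of this length hold. Hamp also holds GGCGCC, the core letters of a bone morphogenetic protein response element, which 11.9% of promoters hold, while Hamp2 does not. The Saa1 and Saa2 promoters were identical at 208 of 299 aligned bases (69.6%) at the best ungapped offset. Saa2 holds an extra c in gcccctcacctg, against gccctcacctg in Saa1. Bases past it are out of step at that offset, so 69.6% understates the likeness. Both promoters hold TTGCACAA, a match to the C/EBP letters TTNNGNAA. Both also hold GGGTGGTGCC, a match to the NF-kB letters GGG and CC held apart by any 5 bases. Hamp2 but not Hamp holds GGCACAACCC, a match to the NF-kB letters on the opposite strand. Saa1 but not Saa2 holds TTTCCCAA, a match to the C/EBP letters on the opposite strand. The C/EBP and NF-kB letters are common, at 40.7% of promoters for C/EBP and 50.8% for NF-kB. Motifs were searched on both strands, matches of different motifs may abut or overlap, and a match is a description of the letters only.

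On build mm9, as the array files give it, the Saa probes lie within one stretch of chromosome 7, at chr7:53996167-53996639 and chr7:53996070-53996129 for Saa1, chr7:54009535-54009594 for Saa2, chr7:53968031-53968090 for Saa3, and chr7:53984760-53984819 and chr7:53983662-53983721 for Saa4. Orm1 at chr4:63006483-63007090 and Orm2 at chr4:63024979-63025038 are neighbours as well. Hp was read at chr8:112099172-112099231, Hpx at chr7:112740304-112740363, Lcn2 at chr2:32241037-32241281 and Hamp at chr7:31727490-31727549. The first Saa1 probe and those of Orm1 and Lcn2 span more bases of the genome than the other probes. No annotation of this build was used here, so the exon of each probe is not given. The Hamp probe matches the Hamp2 probe at 42 of 59 bases (71.2%), and no other pair of Saa or Orm probes came above 46%.

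Values are log2 of liver over reference after normalization within each array, with the liver channel alone as a second reading, scaled so that the 75th percentile of each array is 0. Liver spots were well above background at 50.1% to 64.4% of probes on newborn arrays and 50.2% to 62.0% on fasted arrays. On fed arrays the share was 22.8% to 31.2%. The 75th percentile of a fed array thus lay near the edge of background, and that of a fasted array above it. Liver-channel differences between fasted and fed livers rest on these unlike zero points. None of the 12 probes was saturated on any array. In the liver channel 9 of 12 were well above background on every newborn array, 12 on every fasted array and 11 on every fed array, with Lcn2 not well above background on any of the 6 fed arrays. The 8 hepatocyte markers were above background on every array. Tcf7l2, read by its brightest probe, had log2 ratios of -1.85, -1.57, -1.58 and -1.63 in newborn knockouts, against -1.28, -0.83, -0.70 and -0.32 in wild types (-0.87 ± 0.19, SE, limma adjusted p = 0.0566). In adults its change was 0.35 ± 0.17 in fasted knockouts (adjusted p = 0.491) and 0.21 ± 0.20 in fed knockouts (adjusted p = 0.999), so these probes did not separate adult knockouts from controls. Newborn wild type 1 and knockouts 1 and 4 stood apart from the other 5 newborn livers on the first principal component (45.2% of the variance).

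In newborn knockouts Orm1 rose 3.05-fold over wild types, and it was the single gene of the 10 to pass on the ratio (limma adjusted p under 0.05). Both Orm1 and Hamp passed on the liver channel alone, where 1.47% of all genes passed, with Hamp 12.3-fold higher. This Hamp call held in 2 of 8 fits with 1 array left out. On the ratio Hamp averaged 3.59 in knockouts and 2.94 in wild types and did not pass. Its reference channel was also higher in knockouts, with a mean of 1.16 against -2.16. Over all genes tested, 1.48% passed on the ratio in either direction and 1.15% in the higher direction. The changes of 8 of the 10 genes lay above 0, with a median of 0.93 on the log2 scale, against -0.01 over all genes tested. Saa4, Hp and Hpx, whose newborn ratios were already high, differed least.

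Orm1 and Orm2 encode orosomucoids, also called alpha-1-acid glycoproteins, abundant plasma carriers. Orm1 had log2 ratios of 2.42, 2.75, 2.33 and 1.77 in newborn knockouts, against -0.13, 0.83, 1.03 and 1.1 in wild types. Its liver spot was dim, reading 347, 608.5, 453 and 275 scanner units in knockouts, against 90.5, 172, 192.5 and 215 in wild types, and was not well above background in wild type 1. The reference spot was well above background on 5 of the 8 newborn arrays, and not in wild types 1, 2 and 3. Every knockout liver lay above every wild-type liver, and the difference was 1.61 ± 0.29 (SE, limma adjusted p = 0.0353). Leaving out 1 array at a time moved the difference between 1.33 and 1.79 with adjusted p between 0.0205 and 0.0954. The call was kept in 2 of these 8 fits, those without wild type 1 and without knockout 4, and was lost without wild type 2, 3 or 4 and without knockout 1, 2 or 3. It was also lost with outlier backgrounds kept (1.29, adjusted p = 1), with median centring (1.21, adjusted p = 0.0528) and with Feature Extraction's processed signals (1.66, adjusted p = 0.132). Read in the liver channel alone, Orm1 was at -0.64, -0.49, -1.14 and -1.05 in knockouts, against -2.49, -2.44, -2.27 and -2.14 in wild types. There the difference was 1.5 ± 0.18 (2.84-fold, adjusted p = 0.0104). That call held in 5 of 8 fits with 1 array left out (adjusted p 0.00397 to 0.0597), and without wild type 1, knockout 1 and knockout 4 the difference was 1.47 (adjusted p = 0.0141). The calls lost on this channel were those without wild type 2, wild type 3 or knockout 1.

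Orm2 had log2 ratios of 2.56, 2.94, 2.53 and 2.05 in newborn knockouts, against 2.30, 0.84, 0.97 and 1.21 in wild types. Wild type 1 alone lay within the knockout range, and the difference of 1.19 ± 0.31 did not pass (adjusted p = 0.105). Without wild type 1 it was 1.51 ± 0.20 and passed (adjusted p = 0.0124).

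**Figure D1:**
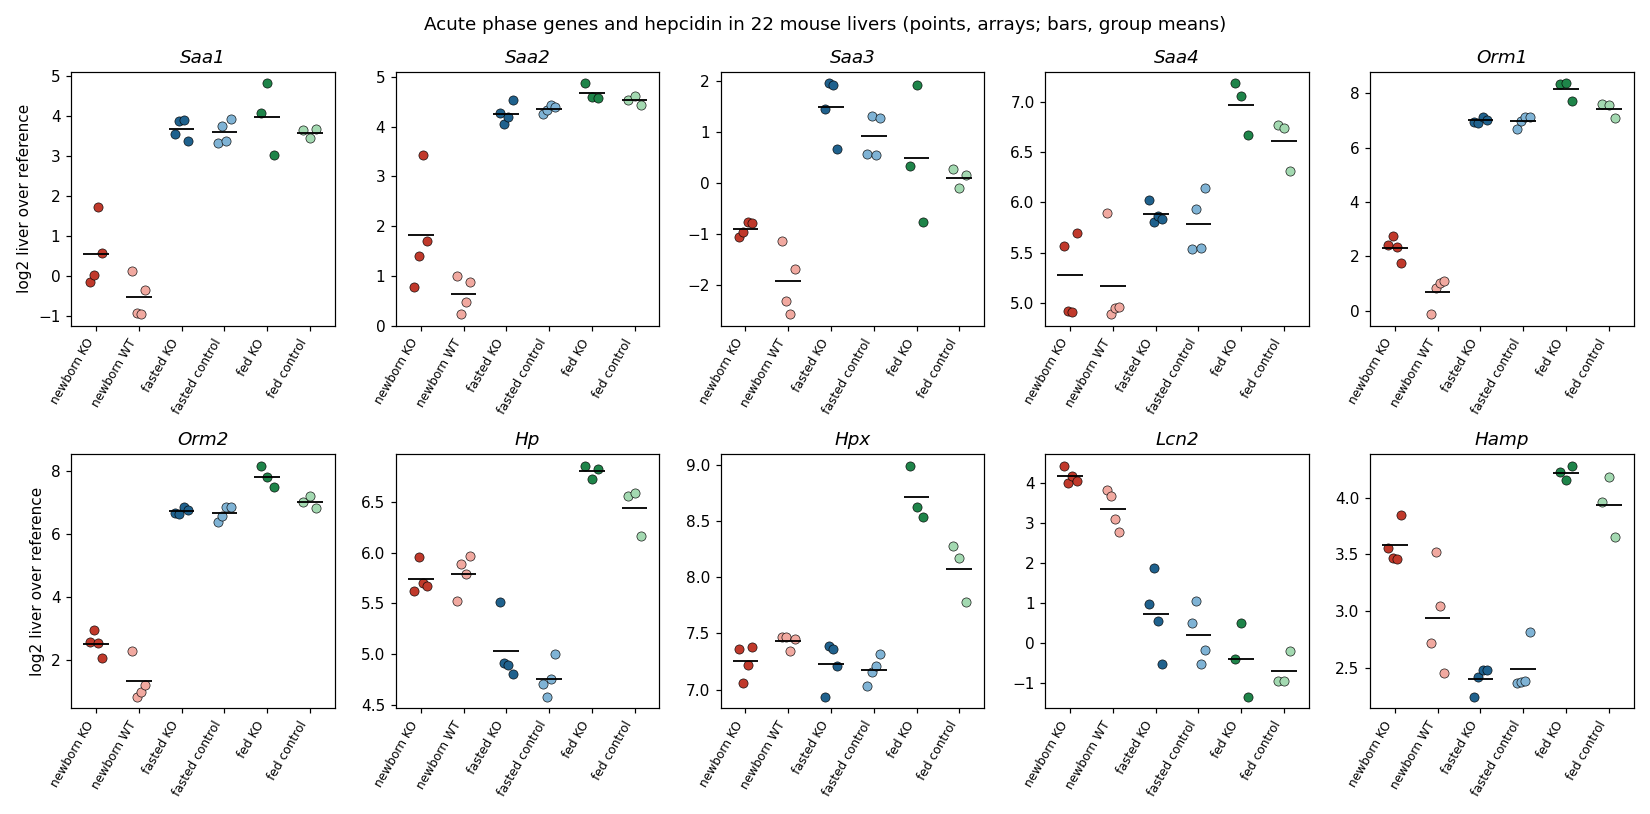
Log2 ratio of liver over reference (vertical axis, own scale per gene) for each of the 10 genes in newborn, fasted and fed livers, knockouts left of their wild types or controls. Points are arrays (n = 4, or 3 in fed groups) and bars are group means, and newborn knockouts lie apart from wild types for Saa3, Orm1 and Lcn2.

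Of the 10 genes Hamp had the largest newborn difference on the liver channel. Its liver-channel level was 3.18, 4.83, 4.67 and 5.20 in newborn knockouts, against -0.29, 2.85, 1.29 and -0.44 in wild types. All 4 knockouts lay above all 4 wild types, and the difference was 3.62 ± 0.70 (SE, limma adjusted p = 0.0408). In scanner units the liver spot read 4598, 22765.5, 22951 and 18062.5 in knockouts, against 388, 5242, 1805 and 595 in wild types. Both groups spread widely, and wild type 2 exceeded knockout 1 in these unscaled units. On the ratio, Hamp read 3.56, 3.47, 3.46 and 3.85 in knockouts, against 2.72, 3.52, 3.05 and 2.46 in wild types, a difference of 0.65 ± 0.21 that did not pass (adjusted p = 0.192). With Feature Extraction's processed signals the difference on the ratio turned to -0.49.

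The gap between these readings lies in the reference channel. Per the labels every array received the same reference RNA. The Hamp reference spot read 1200.5, 4913, 4237 and 4801.5 in newborn knockouts, against 165, 1299, 508 and 262 in wild types. On the scaled log2 axis the reference channel of Hamp was higher in knockouts by 3.32 ± 0.69 (adjusted p = 0.00915), nearly as much as the liver channel. Over the 8 newborn arrays Hamp spanned 5.64 log2 units in the liver channel and 5.39 in the reference channel but 1.38 in the ratio, and 0.326% of genes had a wider reference range, the median range being 0.47. The reference spot held 12.6% to 25.9% of the liver spot's intensity on every newborn array. It was well above background on 7 of the 8. Why the reference reading moved with the liver reading was not tested. The liver-channel call of Hamp was kept in 2 of 8 fits with 1 array left out, those without wild type 1 or wild type 2, with differences between 3.19 and 4.28 and adjusted p between 0.016 and 0.145. It was lost without wild type 3 or 4 and without each of the 4 knockouts in turn, and without wild type 1, knockout 1 and knockout 4 the difference was 3.52 (adjusted p = 0.0514).

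Hamp2 was read by a probe of its own. Its liver-channel level was -1.31, -1.53, -1.79 and -1.06 in newborn knockouts, against -1.69, -2.04, -2.31 and -2.09 in wild types. The groups overlapped through wild type 1. Its reference channel ran from -2.48 to -2.19 in knockouts and from -3.42 to -3.16 in wild types, and its newborn ratios overlapped. On the ratio Hamp2 read 3.51, 3.27, 3.02 and 3.62 in fasted knockouts, against 2.32, 2.63, 3.37 and 1.99 in fasted controls, with overlap. In fed livers it read 4.33, 4.42 and 4.24 in knockouts, against 3.16, 3.88 and 3.95 in controls. There every knockout lay above every control, as in 7.02% of all genes.

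**Figure D2:**
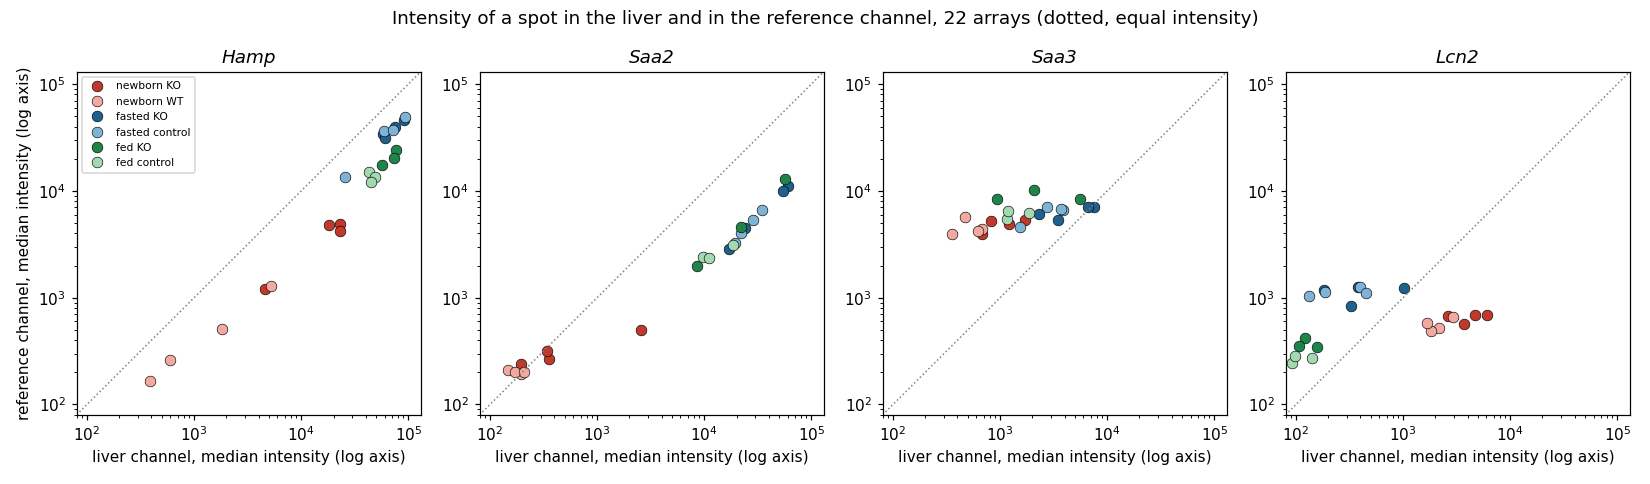
Median spot intensity in the liver channel (horizontal, log axis) and in the reference channel (vertical, log axis) on 22 arrays for Hamp, Saa2, Saa3 and Lcn2, with colours for the 6 groups and a dotted line at equal intensity. The reference spot is brighter on arrays where the liver spot is brighter for Hamp and Saa2, while for Saa3 and Lcn2 it stays within a narrow band in each set.

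Saa1, Saa2 and Saa3 encode the inducible serum amyloid A apolipoproteins, which ride on high-density lipoprotein, and Saa4 the constitutive one. Saa3 had log2 ratios of -1.07, -0.97, -0.77 and -0.79 in newborn knockouts, against -1.15, -2.32, -2.58 and -1.69 in wild types. The groups did not overlap, and the difference of 1.04 ± 0.28 did not pass (adjusted p = 0.108). Genes whose newborn groups did not overlap with knockouts higher made up 5.88% of all genes, and 3 of the 10 were of this kind: Saa3, Orm1 and Lcn2. Saa1 read -0.14, 0.02, 1.72 and 0.59 in knockouts, against 0.13, -0.91, -0.95 and -0.34 in wild types (1.07 ± 0.40, adjusted p = 0.268). Saa2 read 0.77, 1.41, 3.43 and 1.70 in knockouts, against 0.99, 0.23, 0.48 and 0.88 in wild types (1.19 ± 0.48, adjusted p = 0.314). For both genes knockout 3 was the highest newborn liver, and the groups overlapped through wild type 1 for Saa1 and wild types 1 and 4 for Saa2. Saa4 averaged 5.27 ± 0.42 in knockouts and 5.17 ± 0.48 in wild types (SD, n = 4 each). Its second, dimmer probe averaged 4.85 ± 0.11 in knockouts and 4.51 ± 0.19 in wild types, with overlap.

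Lcn2 encodes lipocalin 2, which binds bacterial siderophores and is made by hepatocytes and by maturing neutrophils. It had log2 ratios of 4.44, 4.01, 4.18 and 4.05 in newborn knockouts, against 3.82, 3.67, 3.11 and 2.78 in wild types. The groups did not overlap, and the difference of 0.82 ± 0.22 did not pass (adjusted p = 0.114). Hp encodes haptoglobin, which binds free hemoglobin, and Hpx encodes hemopexin, which binds heme. Hp differed by -0.06 ± 0.13 (adjusted p = 0.921) and Hpx by -0.18 ± 0.11 (adjusted p = 0.565), and on the liver channel alone the differences turned to 0.15 for Hp and 0.29 for Hpx.

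Leaving out wild type 1, one of the 3 livers that stood apart, raised the newborn count to 4 of 10 called on the ratio: Saa3 (1.30, adjusted p = 0.0196), Orm1, Orm2 and Lcn2 (0.98, adjusted p = 0.0456), with 2.52% of all genes called in that fit. Leaving out wild type 1, knockout 1 and knockout 4 together gave 2, with 0.92% of all genes called. Leaving out wild type 2, wild type 3, wild type 4 or knockouts 1, 2 or 3 alone gave 0. With the liver channel alone 2 of 10 passed, against 1.47% of all genes, all 10 changes lay above 0 and their median was 1.1. On the reference channel alone 4 of 10 passed in newborns, Saa2, Orm1, Orm2 and Hamp, against 14.6% of all genes.

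Markers of other cells were set beside these values. The summed liver level of 11 neutrophil precursor markers was 818 to 1110 in newborn knockouts and 591 to 983 in wild types, with all 11 above background on every newborn array. None of them passed on the ratio, and their median change was -0.08. Their liver-channel changes had a median of 0.38, with 10 of the 11 above 0 and no gene past the threshold. The summed level of 12 Kupffer cell markers was 178 to 268 in newborn knockouts and 253 to 350 in wild types. Of these 12, Marco (-1.34 ± 0.17, adjusted p = 0.00795), Csf1r (-0.70 ± 0.14, adjusted p = 0.0488) and Fcna (-1.37 ± 0.28, adjusted p = 0.0493) fell on the ratio. Fewer cells of a type and less RNA per cell cannot be told apart in whole liver. Of 12 fat and pancreas markers 5 were tested in newborns, and all 5 lay above 0 on the liver channel, with a median of 0.34. Ctrb1, a pancreatic chymotrypsinogen gene, rose there by 1.40 ± 0.26 (adjusted p = 0.0366) and differed by 0.35 on the ratio (adjusted p = 0.369). The summed level of the 12 was 8.34 to 14.4 in newborn knockouts and 8.4 to 10.1 in wild types. The part of these cells in the newborn changes was not tested.

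The surrounding pathway was described by its counts on the ratio. None of 13 cytokine and receptor genes, 19 genes of interleukin 6 and interleukin 1 signal transduction, 22 hepcidin regulators, 18 iron handling genes, 18 other positive acute phase genes and 8 negative acute phase genes passed in newborns, and their medians lay between -0.11 and 0.17. Slc40a1, which encodes ferroportin, the target of hepcidin, differed by -0.51 ± 0.11 (adjusted p = 0.0582). Il11, a cytokine of the interleukin 6 family, differed by 0.53 (adjusted p = 0.0808). Osm, the oncostatin M gene of the same family, rose by 0.91 ± 0.17 on the liver channel alone (adjusted p = 0.0366). Serpina3n, another positive acute phase gene, rose there by 1.15 ± 0.22 (adjusted p = 0.0408).

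**Figure D3:**
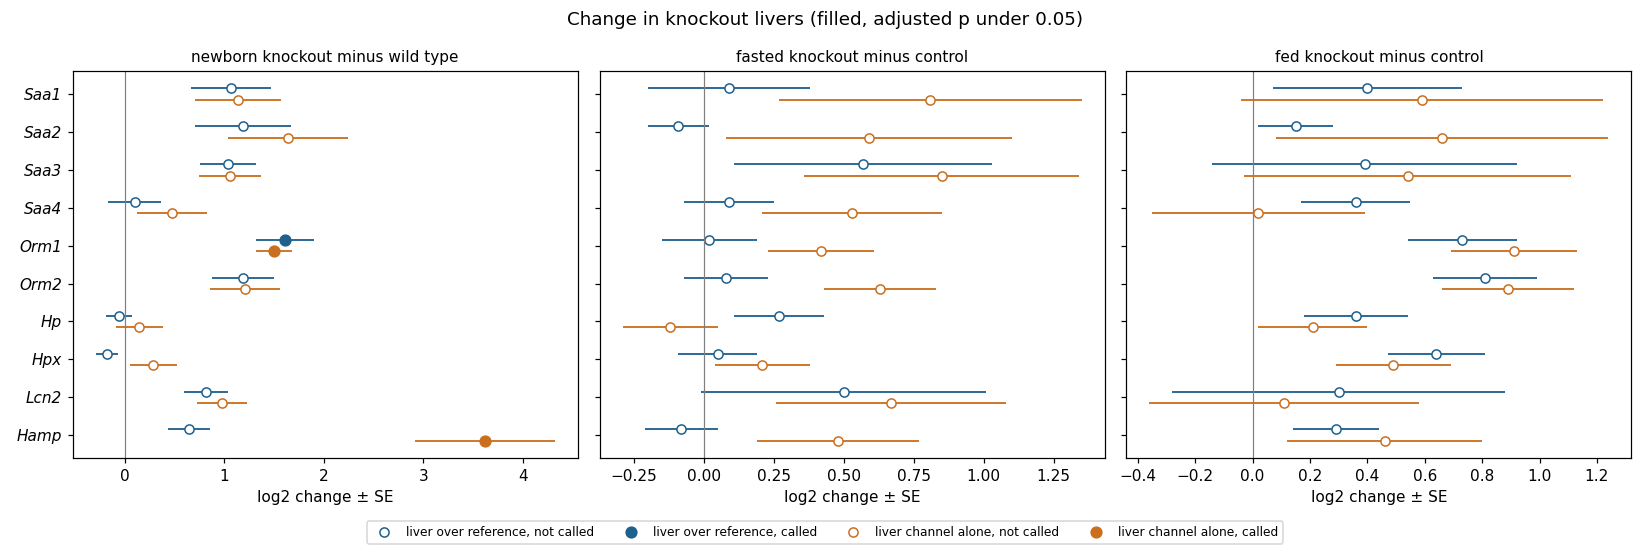
Log2 change ± SE (horizontal) in newborn, fasted and fed knockouts for the 10 genes (vertical), on the ratio and on the liver channel alone, with filled points where the limma adjusted p was under 0.05. The filled points are Orm1 on both scales and Hamp on the liver channel, all in newborns.

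In fasted adults none of the 10 genes passed between knockouts and controls on either scale. On the ratio 0.477% of all genes passed, 8 of the 10 changes lay above 0, their median was 0.08 against 0.01 over all genes, and none of the 10 had an unadjusted p under 0.05 in limma. On the liver channel 0.524% of all genes passed, 9 of 10 changes lay above 0 and the median was 0.56 against 0.06. Orm2 read 5.42, 5.69, 5.06 and 4.72 on the liver channel in fasted knockouts, against 4.61, 4.46, 4.77 and 4.50 in fasted controls (0.63 ± 0.20, adjusted p = 0.204). Orm1 read 4.57, 5.09, 4.57 and 4.33 there, against 4.21, 4.22, 4.17 and 4.26 in fasted controls, and was the single member without overlap, against 2.92% of all genes (0.42 ± 0.19, adjusted p = 0.354). On the ratio the same gene differed by 0.02 ± 0.17. Hamp on the ratio read 2.25, 2.42, 2.48 and 2.48 in fasted knockouts, against 2.37, 2.38, 2.39 and 2.82 in fasted controls (-0.08 ± 0.13, adjusted p = 0.904). Of the controls only control 4 lay outside the knockout range.

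Orm3, a further orosomucoid gene that is not among the 10, gave the clearest fasted difference of the family. Its log2 ratios were 3.55, 4.62, 3.72 and 4.59 in fasted knockouts, against 2.35, 2.57, 2.32 and 1.73 in fasted controls. The groups did not overlap, and the difference was 1.88 ± 0.48 on the ratio (adjusted p = 0.13) and 1.73 ± 0.31 on the liver channel, where it passed (adjusted p = 0.0156). In fed livers Orm3 read 3.53, 4.71 and 2.01 in knockouts, against 1.02, 2.00 and 2.23 in controls, with overlap, and was not well above background in knockout 3 and controls 1 and 2. In newborns it was not well above background on any array. The Orm3 probe matched the Orm1 and Orm2 probes at 37.9% and 38.3% of aligned bases. Whether it also binds Orm1 or Orm2 RNA was not tested.

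Fasted knockouts 2 and 3 carried high levels of fat and pancreas markers. The summed liver level of 12 such markers ran from 4.75 to 176 in fasted knockouts and from 5 to 7.39 in fasted controls, with 176 in knockout 2 and 79.3 in knockout 3. Without these 2 livers the liver-channel difference of Saa1 was 0.21, against 0.81 with them, that of Saa2 was 0.05, against 0.59, and that of Saa3 was 0.41, against 0.85. On the ratio the differences of Saa1, Hpx and Orm1 turned to -0.13, -0.10 and -0.00 without them. The part of the fat and pancreas RNA in the Saa values was not tested beyond this.

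In fed adults none of the 10 genes passed on either scale, against 0.215% of all genes on the ratio and 0.163% on the liver channel, and all 10 changes lay above 0 with a median of 0.38, against 0.02 over all genes. In 4 of the 10, Orm1, Orm2, Hp and Hpx, every knockout lay above every control, as did 7.02% of all genes. The dimmer Saa4 probe did so too, at 7.58 to 8.14 in knockouts, against 7.29 to 7.51 in controls. The brighter Saa4 probe, used in the fits, overlapped. Orm2 had log2 ratios of 8.18, 7.82 and 7.49 in fed knockouts, against 7.03, 7.20 and 6.82 in fed controls (0.81 ± 0.18, adjusted p = 0.121). Orm1 read 8.35, 8.36 and 7.71 in fed knockouts, against 7.59, 7.57 and 7.07 in fed controls (0.73 ± 0.19, adjusted p = 0.261). Hpx read 8.99, 8.62 and 8.53 in fed knockouts, against 8.28, 8.17 and 7.78 in fed controls (0.64 ± 0.17, adjusted p = 0.257). These 3 genes had unadjusted p-values under 0.05 in limma, and the other 7 did not. Hp averaged 6.81 ± 0.07 in fed knockouts and 6.44 ± 0.23 in fed controls (SD, n = 3 each). Without fed knockout 3, Orm1 (0.94, adjusted p = 0.0358) and Orm2 (0.98, adjusted p = 0.0292) passed. The share of all genes called in that fit was 0.576%, against 0.215% in the main fit.

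The same direction was seen in the other positive acute phase genes of fed livers, where 18 of 18 changes lay above 0 with a median of 0.36, 9 had an unadjusted p under 0.05 in limma and none passed after adjustment. It was also seen in genes that are not induced in inflammation: all 8 hepatocyte markers (median 0.39), all 8 negative acute phase genes (median 0.26) and all 12 Kupffer markers (median 0.52) lay above 0, and none passed. The medians on the liver channel were 0.38, -0.01 and 0.37 for these 3 lists and 0.31 for the other positive acute phase genes. On that channel 5 of the 10 genes had knockouts wholly above controls, against 5.99% of all genes, with Hamp added to the 4 above. Hamp there read 7.98, 7.71 and 7.85 in fed knockouts, against 7.63, 7.36 and 7.17 in fed controls (0.46 ± 0.34, adjusted p = 1).

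Saa1, Saa2 and Saa3 varied more from liver to liver than between genotypes in adults, and they varied together. Whether their probes also bind each other's RNA was not tested. On the liver channel Saa1 read 5.79, 7.28 and 4.28 in fed knockouts, against 5.17, 4.96 and 5.44 in fed controls. Saa2 read 6.18, 7.71 and 4.73 in fed knockouts, against 5.51, 5.22 and 5.90 in fed controls, and Saa3 read 2.75, 4.34 and 1.5, against 2.41, 1.98 and 2.59. Fed knockout 2 was the highest and fed knockout 3 the lowest of the 6 fed livers for all 3 genes. Without knockout 2 the liver-channel differences were -0.16, -0.09 and -0.20 for Saa1, Saa2 and Saa3, against 0.59, 0.66 and 0.54 with it. In fasted knockouts Saa1 read 5.75, 6.36, 6.18 and 4.41, against 4.47, 5.44, 4.08 and 5.49 in fasted controls, with knockout 4 lowest among the knockouts. Saa3 read 3.40, 3.66, 3.53 and 2.01 in fasted knockouts, against 1.92, 2.76, 1.74 and 2.76 in fasted controls, and knockout 4 was again the lowest of its group.

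For Saa2 the ratio carried little of this spread. Over the 6 fed arrays Saa2 spanned 2.98 log2 units in the liver channel and 2.74 in the reference channel but 0.43 in the ratio, and 0.064% of genes had a wider reference range. The first Saa1 probe behaved alike, with 3.24, 2.84 and 0.84. The second Saa1 probe, used in the fits, spanned 3.00 in the liver channel, 1.03 in the reference channel and 1.77 in the ratio. Saa3 had a reference range of 0.23 in fed livers, and its ratio spanned 2.68, close to its liver range of 2.84. What moved the reference reading of Saa2 and Hamp was not tested.

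**Figure D4:**
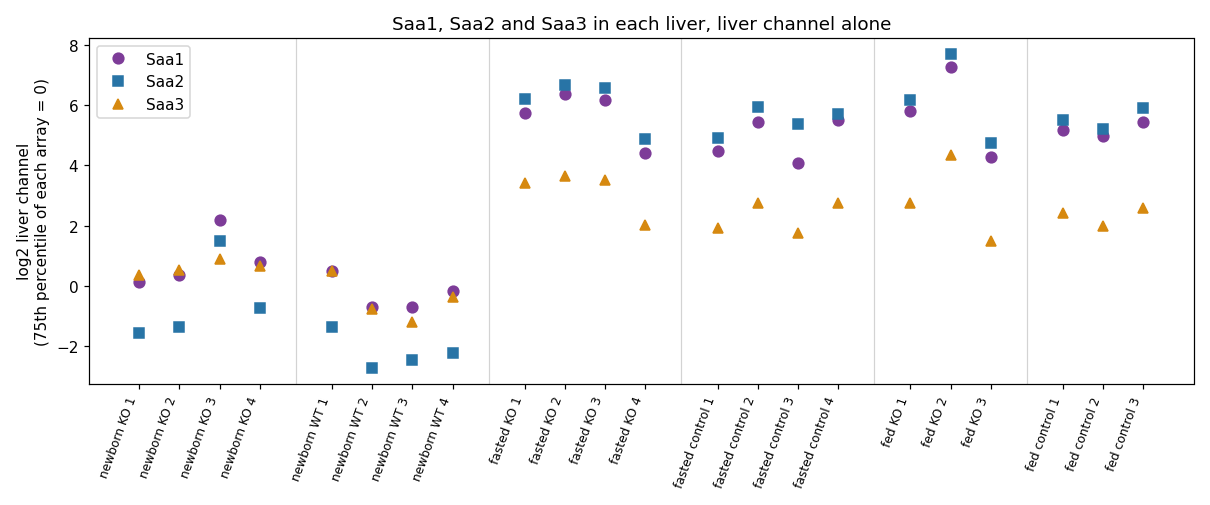
Liver-channel level of Saa1, Saa2 and Saa3 (vertical, log2 with the 75th percentile of each array at 0) in each of 22 livers (horizontal), knockouts left of wild types or controls within each set. The 3 genes rise and fall together from liver to liver, with fed knockout 2 the highest liver for each.

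Between fasted and fed livers the acute phase genes were mostly lower after the fast on the ratio. In knockouts 7 of 10 passed and all 7 were lower, against 35.7% of all genes passing in either direction and 17% lower. In controls 4 of 10 passed and all 4 were lower, against 36.8% in either direction and 16.6% lower. Which genes passed, and the direction, depended on the normalization within arrays. With median centring in place of loess the counts were again 7 and 4, but 5 were lower and 2 higher in knockouts, against 53.1% of all genes passing, and 2 were lower and 2 higher in controls, against 52.7%. The higher genes were Saa2 and Saa3 in both genotypes, and the calls of Saa4 in both (-0.42, adjusted p = 0.0582, and -0.31, adjusted p = 0.157) and of Hpx in controls (-0.01, adjusted p = 0.969) were lost. Hp and Hamp remained lower in both genotypes by less, at -0.70 and -0.75 in knockouts and -0.68 and -0.55 in controls. Since feeding cannot be told apart from slide here, these are differences between sets of arrays, and the genotypes are given side by side. The liver channel alone called 3 of the 10 in knockouts, against 45.1% of all genes, and 2 of the 10 in controls, against 51.4%. Its zero point lay near background on fed arrays and above it on fasted arrays, which limits this reading. The interaction of genotype with feeding was tested in limma, and no member and no gene of 17187 passed, with 1134 genes and 3 of the 10 at an unadjusted p under 0.05.

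Hamp had log2 ratios of 2.25 to 2.48 in fasted knockouts and 4.15 to 4.28 in fed knockouts, a 3.5-fold lower ratio after the fast (-1.81 ± 0.14, SE, adjusted p = 4.38e-06). In controls it ran from 2.37 to 2.82 in fasted and from 3.65 to 4.18 in fed livers (-1.44 ± 0.14, adjusted p = 1.99e-05). The fasted and fed values did not overlap in either genotype. Hamp differences on the liver channel alone were smaller and did not pass, at -0.74 ± 0.32 in knockouts (adjusted p = 0.0709) and -0.77 ± 0.32 in controls (adjusted p = 0.0563). The Hamp reference spot held 50.8% to 61.9% of the liver spot in fasted livers and 27.1% to 35.5% in fed livers.

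Hp was lower after the fast on both scales in both genotypes. Its log2 ratios were 5.51, 4.91, 4.89 and 4.80 in fasted knockouts, against 6.86, 6.73 and 6.83 in fed knockouts (-1.78 ± 0.17, adjusted p = 1.54e-05). In controls they were 4.70, 4.58, 4.75 and 5.00 in fasted livers, against 6.56, 6.59 and 6.17 in fed livers (-1.68 ± 0.17, adjusted p = 2.35e-05). On the liver channel the differences were -0.99 ± 0.18 in knockouts (adjusted p = 0.00126) and -0.65 ± 0.18 in controls (adjusted p = 0.0074). Over all genes the liver channel itself shifted, by a median of -0.29 in knockouts and -0.31 in controls, and each liver-channel difference contains this shift. The Hp differences were larger than this shift in both genotypes. Their adjusted p-values in limma are against no change, and Hp was not tested relative to the shift.

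Orm1 was lower after the fast in knockouts, with differences of -1.14 ± 0.18 on the ratio (adjusted p = 0.000481) and -0.99 ± 0.20 on the liver channel (adjusted p = 0.0021). In controls the difference was -0.43 ± 0.18 on the ratio, which did not pass (adjusted p = 0.0768), and -0.50 ± 0.20 on the liver channel, which did (adjusted p = 0.0481). Orm2 was lower in knockouts on the ratio (-1.09 ± 0.17, adjusted p = 0.000375) and differed by -0.38 ± 0.22 on the liver channel, which did not pass (adjusted p = 0.166). In controls the Orm2 ratio differed by -0.35 ± 0.17 and did not pass (adjusted p = 0.115). With outlier backgrounds kept, neither gene passed in knockouts on the ratio. Orm1 was at -1.02 there (adjusted p = 0.211) and Orm2 at -0.99 (adjusted p = 0.127). In controls both then passed, at -1.76 for Orm1 (adjusted p = 0.0374) and -1.30 for Orm2 (adjusted p = 0.0481). Both also passed in controls with Feature Extraction's processed signals (-0.81, adjusted p = 0.0212, and -0.73, adjusted p = 0.00947). An offset of 16 gave -0.62 (adjusted p = 0.0441) and -0.51 (adjusted p = 0.0495). With median centring the Orm2 value in controls turned to 0.08 (adjusted p = 0.694). The interaction was -0.71 ± 0.26 for Orm1 (adjusted p = 0.697) and -0.74 ± 0.23 for Orm2 (adjusted p = 0.668), so a genotype difference in these fasting differences was not shown.

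Hpx and Saa4 were lower on the ratio but not on the liver channel. The Hpx ratio differed by -1.49 ± 0.16 in knockouts (adjusted p = 3.04e-05) and by -0.90 ± 0.16 in controls (adjusted p = 0.000877). Its liver-channel difference was 0.06 ± 0.19 in knockouts and 0.34 ± 0.19 in controls, so the direction of Hpx depends on the scale. Saa4 differed by -1.09 ± 0.17 on the ratio in knockouts (adjusted p = 0.000536) and by -0.82 ± 0.17 in controls (adjusted p = 0.00304), and on the liver channel by -0.10 ± 0.34 and -0.61 ± 0.34 without passing. Saa2 was lower on the ratio in knockouts (-0.42 ± 0.12, adjusted p = 0.0187), a call lost with outlier backgrounds kept (-0.40, adjusted p = 0.151). With median centring Saa2 passed in the other direction, at 0.41 in knockouts (adjusted p = 0.0174) and 0.49 in controls (adjusted p = 0.00631), so its direction depends on the normalization. Saa1 did not pass in either genotype.

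Lcn2 and Saa3 had differences above 0 on the ratio in both genotypes, and neither passed there. Lcn2 had log2 ratios of 0.98, 1.87, 0.54 and -0.53 in fasted knockouts, against -0.39, 0.51 and -1.34 in fed knockouts. In controls it read 0.51, 1.05, -0.53 and -0.18 in fasted livers, against -0.95, -0.95 and -0.21 in fed livers. Fasted and fed livers overlapped in both genotypes, and no fed liver was well above background. The difference was 1.12 ± 0.55 in knockouts (adjusted p = 0.126) and 0.91 ± 0.55 in controls (adjusted p = 0.209), and with median centring the value in controls turned to -0.17 (adjusted p = 0.768). As fed levels are bounds, no fold is given. Without fasted knockout 4 the knockout difference was 1.54 and passed (adjusted p = 0.0354). Lcn2 passed in knockouts on the liver channel (1.20 ± 0.44, adjusted p = 0.0374), with overlap between the groups. Saa3 differed by 1.00 ± 0.49 in knockouts (adjusted p = 0.13) and 0.83 ± 0.49 in controls (adjusted p = 0.208) on the ratio, and on the liver channel by 0.29 and -0.03. With median centring its ratio passed as higher in both, at 1.66 (adjusted p = 0.0123) and 1.33 (adjusted p = 0.0376).

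Other liver genes moved in the same direction between the 2 sets of arrays. On the ratio all 8 negative acute phase genes fell in both genotypes, with medians of -1.56 in knockouts and -1.28 in controls, and 7 of 8 hepatocyte markers fell in each genotype. Among 18 other positive acute phase genes 9 fell and 3 rose in knockouts, and 9 fell and 4 rose in controls. On the liver channel 3 of the 8 negative acute phase genes fell and none rose in each genotype.

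**Figure D5:**
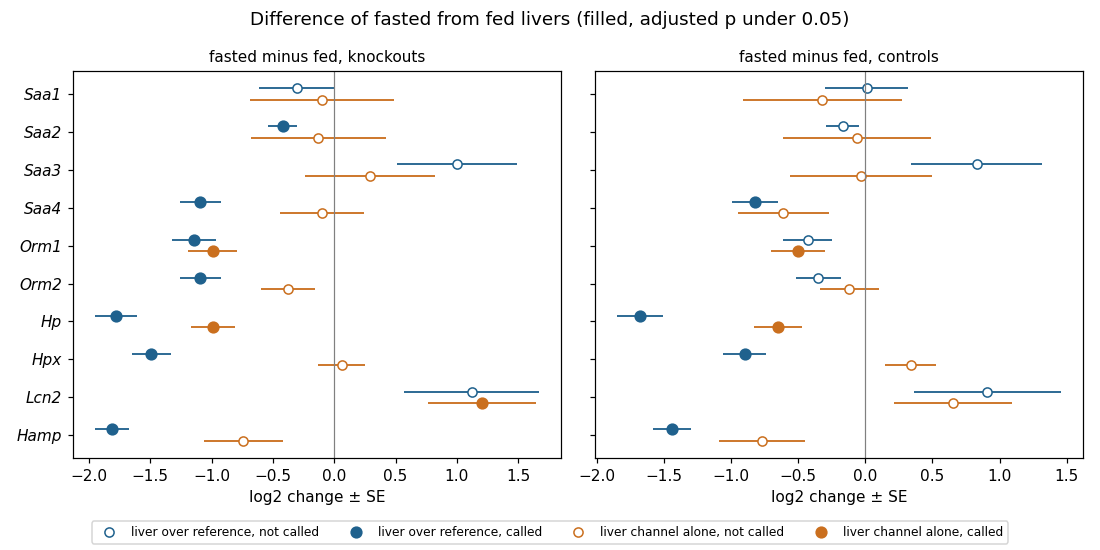
Log2 difference ± SE (horizontal) of fasted from fed livers for the 10 genes (vertical), in knockouts and in controls, on the ratio and on the liver channel alone, with filled points where the limma adjusted p was under 0.05. Hp is lower on both scales in both genotypes, while Hpx, Saa4 and Hamp in both genotypes and Saa2 and Orm2 in knockouts are filled on the ratio only.

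Across the 6 groups the genes fell into different orders of level. Lcn2 was highest in newborns, at 4.17 ± 0.19 in knockouts and 3.35 ± 0.48 in wild types, and lower in adults, at 0.72 ± 1.00 in fasted knockouts, 0.21 ± 0.71 in fasted controls, -0.41 ± 0.92 in fed knockouts and -0.70 ± 0.43 in fed controls (log2 ratio, SD). The 4 adult groups overlapped with one another. Neutrophil precursor markers ran the same way, with summed liver levels of 1.97 to 11.2 in fasted and 4.19 to 5.47 in fed livers against the newborn levels given above, and Camp, Elane and Ngp were above background on no adult array. Orm1 ran the other way, at 2.32 ± 0.41 in newborn knockouts and 0.71 ± 0.57 in newborn wild types, against 7.00 ± 0.10 in fasted knockouts, 6.98 ± 0.21 in fasted controls, 8.14 ± 0.37 in fed knockouts and 7.41 ± 0.29 in fed controls. The 2 fasted Orm1 groups did not differ beyond their spread. Orm2, Saa1, Saa2 and Saa3 were likewise higher in every adult liver than in every newborn liver, though for Saa3 fed knockout 3 (-0.76) lay only just above the highest newborn (-0.77). Newborns and adults were normalized alike but lie on different slides and were not tested against each other.

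Genes most like 3 of the members were ranked by Pearson correlation of deviations from group means on the ratio, over 22 arrays and 14803 genes, as a description without a test. For Saa1 these were Saa3 (0.78), Defb15 (0.73) and Rarres1 (0.70), and on the liver channel Saa2 (0.95) and Saa3 (0.92). For Lcn2 they were Gfpt2 (0.89), Wfdc15b (0.87) and Snx9 (0.80). For Hamp they included Reps1 (0.81) and Fbln2 (0.74). The points share arrays, slides and the reference RNA.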

How the data were processed

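Agilent Feature Extraction 10.5.1.1 made the array files, per the file headers (protocol GE2_105_Dec08, mm9 positions), while the submitters' processing notes name 8.5.1.1. The deposited intensity values are median spot and local background brightness per channel, not normalized by the authors. The deposited log10 ratios of the series table equal those in the array files and were not used in the fits. Here, outlier local backgrounds were set to the array median, intensities were corrected with normexp (offset 50), normalized by loess within arrays and turned to log2 liver over reference. Non-uniform and population-outlier spots were set to missing. Genes were tested on the brightest of their probes, where 4 newborn or 3 adult arrays or more had it above background, with limma 3.58.1 in R 4.3.3 (lmFit, eBayes, two-sided, Benjamini-Hochberg at 0.05 over all genes) and 6 newborn or 10 adult residual degrees of freedom. The fit was tested on simulated data.

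Alternatives were kept outlier backgrounds, an offset of 16, median centring, Feature Extraction's processed signals, single channels, array weights, slide and replicate blocks, and arrays left out. The labels call the mice biological replicates. The array number limits precision. Members, lists and the naming rule (all 10 members, the 4 list genes with the smallest adjusted p per comparison, and the 5 genes most like a member) were chosen with earlier results of these data known, and Orm3 and Hamp2 were named in full after their values were seen. One gene among those most like a member is not reported here.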

Additional observations from a re-analysis of the deposited data

Results flagged for a closer look

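In 6 of 80 groups of 4 values examined, over 10 genes, 4 groups and both scales, 1 liver lay far from the other 3. Chance alone gives about 1 in 20. Newborn wild type 1 was the liver concerned 3 times, with a Saa4 log2 ratio of 5.89 (nearest other 4.96), an Orm2 liver-channel level of -0.51 (nearest -2.02) and an Hpx liver-channel level of 7.82 (nearest 6.91). The other 3 were the Hp ratio of fasted knockout 1 at 5.51 (nearest 4.91), the Hamp ratio of fasted control 4 at 2.82 (nearest 2.39) and the Saa3 liver-channel level of fasted knockout 4 at 2.01 (nearest 3.40). Groups of 3 were not examined this way.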

How the results depend on the processing

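Few arrays, dim fed livers and slides that cannot be told apart from newborn genotype and from feeding limit these results. The newborn count of 1 of 10 was 0 with outlier backgrounds kept, median centring or Feature Extraction's processed signals, 2 on the liver channel alone, 4 with array weights, 2 without newborn wild type 1, knockout 1 and knockout 4 (chosen after seeing the data), and 0 to 4 with 1 array left out. Of all genes, 1.48% were called in the main fit, 0% with outlier backgrounds kept, 0.64% with median centring and 2.63% with processed signals. The share was 1.47% on the liver channel alone, 4.93% with array weights and 0.92% without the named newborn arrays. With 1 array left out it ran from 0.384% to 2.52%. The fed count of 0 was 0 to 2 with 1 array left out, against 0.175% to 0.576% of all genes. The count of 7 between fasted and fed knockouts was 4 with outlier backgrounds kept, 6 with processed signals and 3 on the liver channel. The shares of all genes called were then 19.4%, 52.7% and 45.1%. With 1 array left out the count was 6 to 8, against 28.9% to 32.5% of all genes. The count of 4 in controls was 2 on the liver channel, against 51.4% of all genes. With 1 array left out it was 4 to 5, against 28.2% to 34.3%. In controls it rose to 6, all lower, with outlier backgrounds kept, processed signals or an offset of 16. The shares of all genes called in controls were then 22.3%, 52.9% and 36.4%. With median centring these counts were again 7 and 4, but 2 of each were genes called higher, Saa2 and Saa3. Fasted and interaction counts stayed at 0 under the alternatives run. The cause of these moves was not tested.

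Signs turned mostly for small differences that had not passed. Feature Extraction's processed signals gave Saa4 -0.14 and Hamp -0.49 in newborns, and Orm1 -0.05 and Hamp 0.06 in fasted knockouts. An offset of 16 gave Saa4 -0.04 in newborns, the 3 newborn arrays left out gave it -0.02, and array weights gave it -0.02 in fasted knockouts. Median centring gave Hp 0.07 in newborns and Lcn2 -0.09 in fed knockouts, and between fasted and fed livers Saa1 0.51 and Saa2 0.41 in knockouts and Saa2 0.49, Orm2 0.08 and Lcn2 -0.17 in controls. The liver channel gave Hp 0.15 and Hpx 0.29 in newborns, Saa2 0.59, Hp -0.12 and Hamp 0.48 in fasted knockouts, Hpx 0.06 between fasted and fed knockouts, and Saa1 -0.32, Saa3 -0.03 and Hpx 0.34 in controls. Outlier backgrounds kept gave Saa2 0.19 in fasted knockouts and Saa1 -0.28 between fasted and fed controls, where a random slide block gave it -0.02. Without fasted knockouts 2 and 3, Saa1 was -0.13, Saa2 0.05, Orm1 -0.00 and Hpx -0.10, and on the liver channel Saa2 was 0.05, Hp -0.32 and Hamp 0.75. Without fed knockout 2 the liver channel gave Saa1 -0.16, Saa2 -0.09, Saa3 -0.20, Saa4 -0.06 and Lcn2 -0.16.

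With 1 array left out, differences that changed sign ranged from -0.04 to 0.34 for Saa4 and -0.15 to 0.00 for Hp in newborns, and in fasted knockouts from -0.08 to 0.07 for Orm1, -0.01 to 0.14 for Orm2, -0.01 to 0.14 for Hpx and -0.11 to 0.04 for Hamp. In fed knockouts they ranged from -0.02 to 0.87 for Saa1, -0.32 to 1.02 for Saa3 and -0.16 to 0.76 for Lcn2, and between fasted and fed livers from -0.77 to 0.12 for Saa1 in knockouts and -0.10 to 0.09 in controls. Within the slides of the fasted set Hp was 0.57 and -0.03, and within the second slide of the fed set Saa1, Saa3, Orm1, Orm2 and Lcn2 were -0.52, -0.78, 0.39, 0.48 and -0.76.

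Equal replicate numbers were not taken as pairs in the main fits. Same-number correlations in newborns were 0.50, 0.35, 0.39 and -0.23 for replicates 1 to 4. Only for replicates 1 and 2 was the same number the best match, so these values do not settle whether newborns were paired. In adults they ran from -0.13 to 0.16. With the replicate number as a block the counts were 1, 0 and 0 in newborn, fasted and fed knockouts and 8 and 4 between fasted and fed knockouts and controls, with Lcn2 added in knockouts (1.39, adjusted p = 0.0302). The shares of all genes called were then 2.07%, 0.367%, 0.169%, 32.4% and 32.5%, in the same order.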
